A study of Mus musculus with 19 samples.

Results

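The prostaglandin genes described here are 6 genes for the making, breakdown and sensing of prostaglandin E2, namely Ptgs1, Ptgs2, Ptges, Hpgd, Ptger2 and Ptger4. They were listed by name for their roles, out of 24689 gene symbols in the deposited table, and all 6 were found in it. PolyA RNA of whole tongue epithelia from 19 mice was measured by bulk RNA sequencing, 15 days after transgenes were switched on. The question was what the E6-E7 oncogenes of a papillomavirus and an active form of the coactivator YAP do to the oral epithelium, alone and together. The values are in TPM (transcripts per 1000000 transcripts), which are meant to correct the reads of a gene for its length and the depth of the mouse. The lengths used are not given in the sources used here. A level in TPM can thus be compared between mice, but not firmly set beside that of another gene.

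The mice fell into groups called N, E, Y and EY. Of the 5 N mice, which served as controls, mice 1 to 3 carried Krt14-CreERT/LSL-rtTA. N mouse 4 carried LSL-rtTA and no Cre, and N mouse 5 carried Krt14-CreERT/tetON_E6-E7/tetON_YAP1S127A and no rtTA. The 5 E mice were Krt14-CreERT/LSL-rtTA/tetON_E6-E7, the 3 Y mice Krt14-CreERT/LSL-rtTA/tetON_YAP1S127A, and the 6 EY mice carried both tetON transgenes beside Krt14-CreERT and LSL-rtTA. According to the methods of the study, the mice were adult littermates balanced for age and sex, carried an H2B-GFP reporter, and all groups received tamoxifen in the tongue and doxycycline in the chow. The transgenes were driven in basal cells that express Krt14, and the RNA came from all layers of the epithelium and any other cells in it. Bulk values cannot tell fewer cells of a type from less RNA per cell. EY, Y and E epithelia were compared with the same N mice, so these comparisons are not independent.

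Prostaglandins are lipid signals made where they act. Phospholipases free arachidonic acid from membranes, the cyclooxygenases encoded by Ptgs1 and Ptgs2 turn it into prostaglandin H2, and synthases such as the product of Ptges convert that into prostaglandin E2, which acts on receptors at the cell surface until the enzyme encoded by Hpgd oxidizes it. In squamous epithelia Ptgs2 is known as the inducible cyclooxygenase of wounds, inflammation and many tumours, and Hpgd as a gene of differentiated cells that is often low in carcinomas.

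Between 8269674 and 11007304 reads per mouse were recovered from the TPM. The median was 9637779 for N mice, 8848776 for E mice, 8679053 for Y mice and 9448942 for EY mice. Across the 19 mice, Ptgs2 was covered by 45 to 3960 reads, Hpgd by 525 to 3039, Ptges by 207 to 919, Ptgs1 by 198 to 642, Ptger4 by 42 to 117 and Ptger2 by 0 to 11. Groups were compared with limma on log2(TPM + 0.1) over the 22745 genes that reached 0.1 TPM in 3 mice or more, and all 6 prostaglandin genes passed this filter. A gene was called different when its p, adjusted over all genes tested by the method of Benjamini and Hochberg, was below 0.01 and its log2 fold change was above 1 in size. Over all genes tested, the median log2 fold change was 0.33 for EY, 0.13 for Y and 0.07 for E against N. Median-of-ratios scaling, which divides a mouse by its typical ratio to the gene means, brought this to 0.01 for EY and -0.03 for Y. For the prostaglandin genes and the other pathway genes, values after scaling are given where they change a call. For marker genes no values after scaling are given.

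RefSeq promoters of build GRCm38.p6 were matched for 6 of 6 genes, whereas the reads were aligned to GRCm39. The 250 bases before the start are shown for Ptgs2, Ptges and Hpgd, the 3 of these genes called different between EY and N, so that a reader can see the sequence beside which transcription begins. They lie at chr1:150099781-150100030 on the plus strand (Ptgs2, 61.6% G and C), chr2:30903298-30903547 on the minus strand (Ptges, 59.6%) and chr8:56294302-56294551 on the plus strand (Hpgd, 56.8%), and capitals mark the motifs found.
Ptgs2: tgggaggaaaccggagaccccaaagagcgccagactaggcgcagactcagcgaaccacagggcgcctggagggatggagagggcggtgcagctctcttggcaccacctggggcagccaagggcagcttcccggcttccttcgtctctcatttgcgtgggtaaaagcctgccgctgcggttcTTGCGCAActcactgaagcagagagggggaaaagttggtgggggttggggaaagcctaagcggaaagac
Ptges: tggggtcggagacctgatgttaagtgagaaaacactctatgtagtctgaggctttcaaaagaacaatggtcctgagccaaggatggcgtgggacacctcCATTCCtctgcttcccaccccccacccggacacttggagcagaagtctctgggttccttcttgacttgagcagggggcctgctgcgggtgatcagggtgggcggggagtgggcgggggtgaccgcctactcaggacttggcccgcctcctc
Hpgd: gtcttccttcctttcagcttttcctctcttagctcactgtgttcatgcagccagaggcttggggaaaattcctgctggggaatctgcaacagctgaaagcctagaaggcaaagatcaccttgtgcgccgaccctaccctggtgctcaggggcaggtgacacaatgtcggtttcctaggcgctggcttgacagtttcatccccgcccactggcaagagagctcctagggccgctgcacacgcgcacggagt

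Both strands were searched for 7 motifs. Over 32841 promoter windows of this length, the TEAD core GGAATG was present in 12.6%, the AP-1 motif TGANTCA in 6.75%, the C/EBP motif TTGCGCAA in 0.164%, the cAMP response element core ACGTCA in 6.47%, the E-box CACGTG in 6.02%, the TATA box TATAAA in 12.4% and the NF-kB consensus in 7.25%. The Ptgs2 window held the C/EBP motif, which reads the same on both strands, from 69 to 62 bases before the start. The Ptges window held the TEAD core on its other strand, 151 to 146 bases before the start. None of the 7 motifs was in the Hpgd window. A match is a description of letters and says nothing on whether a factor binds there.

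Ptgs1 encodes the cyclooxygenase that most tissues make at a steady level. It was at 10.9, 14.8, 11.3, 12.2 and 6.85 TPM in the N mice, at 12.8, 9.96, 10.4, 11.7 and 9.50 in E, and at 18.5, 7.44 and 8.79 in Y mice. In EY mice it ranged from 5.97 to 17.4 TPM with a median of 10.3. The groups overlapped throughout, and Y mouse 1 had the highest value of all. The log2 fold change of Ptgs1 was -0.16 in EY (95% confidence interval -0.73 to 0.42, adjusted p = 0.691), -0.03 in Y (-0.72 to 0.67) and -0.01 in E epithelia (-0.61 to 0.59). Relative to the shift of all genes the EY value was larger, at -0.53 after median-of-ratios scaling (-1.08 to 0.03) and -0.56 after quantile normalization (-1.13 to 0.01, adjusted p = 0.114), and it was not called. Over the fits that left out 1 mouse each, the value in EY ran from -0.32 without EY mouse 6 to -0.02 without EY mouse 5, the value in Y from -0.42 without Y mouse 1 to 0.23 without Y mouse 2, and the value in E from -0.17 to 0.10, so the signs in Y and E are not settled. The sign in Y also changed without N mouse 2, N mouse 4 or Y mouse 3.

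Ptgs2 encodes the inducible cyclooxygenase. It was at 14.5, 15.6, 9.44, 49.2 and 12.6 TPM in the N mice, at 3.01, 16.6, 12.0, 17.4 and 22.9 in E, and at 174, 61.0 and 55.3 in Y mice. In EY mice the lowest value was 76.0, the median 198 and the highest 270.2 TPM. All EY and Y mice lay above all N and E mice, N mouse 4 (the mouse without Cre) stood above the other N mice and came closest to Y, and Y mouse 1 lay inside the range of EY. The means were 14.4 ± 7.43 TPM (SD, n = 5) in E, 20.3 ± 16.4 (n = 5) in N, 96.7 ± 66.8 (n = 3) in Y and, highest of the groups, 187 ± 68.8 (n = 6) in EY. The log2 fold change in EY was 3.36 (95% confidence interval 2.27 to 4.46, adjusted p = 4.56e-05), and 6 of 6 EY mice were above every N mouse. After median-of-ratios scaling it was 2.99 (adjusted p = 0.000235). Without N mouse 4 it was 3.75.

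In Y epithelia the log2 fold change of Ptgs2 was 2.31 (0.99 to 3.63), with 3 of 3 Y mice above every N mouse, and its adjusted p of 0.0169 missed the threshold. Leaving out N mouse 4 brought it to 2.6998 with an adjusted p of 0.00615, and leaving out E mouse 1, the mouse with the lowest Ptgs2, to an adjusted p of 0.00487 at the same fold change, so that both fits called the gene. Without Y mouse 1 the fold change was 1.79 with an adjusted p of 0.105. In E epithelia it was -0.49 (-1.63 to 0.66, adjusted p = 0.771), with E mouse 1 far below the others. Without E mouse 1 the difference was 0.0008 on the log2 scale. In the order E, N, Y, EY, limma called no pair of neighbours, with 1.05 between Y and EY (-0.23 to 2.33, adjusted p = 0.307), while voom called N and Y (2.19, adjusted p = 0.00555).

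**Figure D1:**
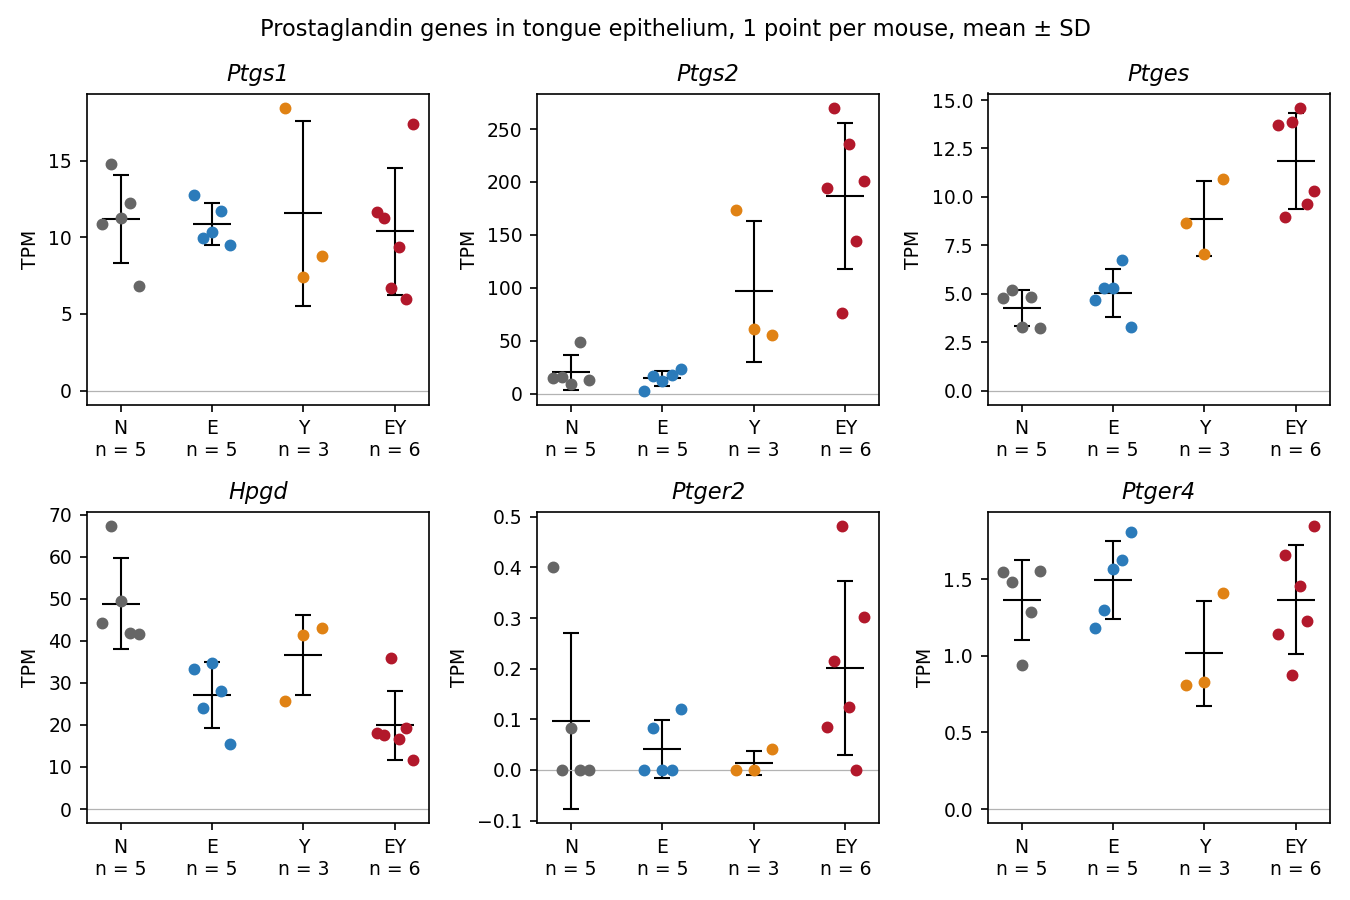
TPM of the 6 prostaglandin genes in each mouse of the groups N (n = 5), E (n = 5), Y (n = 3) and EY (n = 6), on a linear axis of its own for each gene. Points are mice, and bars give the mean and SD. EY mice lie apart from N mice in Ptgs2, Ptges and Hpgd, while Ptgs1, Ptger2 and Ptger4 overlap.

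The share of Ptgs2 in the TPM of both cyclooxygenase genes was read in each mouse. Ptgs2 made up 45.6% to 80.1% of the summed TPM of Ptgs1 and Ptgs2 in N mice (median 57.1%) and 19.04% to 70.7% in E mice (median 59.7%). It made up 86.3% to 90.4% in Y (median 89.1%) and 91.9% to 96.2% in EY mice (median 95.2%). Every EY mouse thus had a larger share of Ptgs2 than every Y mouse, and every Y mouse a larger one than every N and E mouse. As a ratio within each mouse, this share does not change when a mouse is scaled. Its size depends on the gene lengths used, which are not given, while the order of the mice does not. N mouse 1, at 57.1%, had 417 recovered reads of Ptgs1 and 208 of Ptgs2. The share was not tested, and it says nothing on the amount or activity of either enzyme.

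Ptges encodes the microsomal synthase that makes prostaglandin E2 from the product of the cyclooxygenases. It was at 4.80, 5.18, 3.28, 4.83 and 3.21 TPM in the N mice, at 4.65, 5.28, 5.29, 6.74 and 3.29 in E, and at 8.66, 7.06 and 10.9 in Y mice. In EY mice it ranged from 8.96 to 14.6 TPM with a median of 12.0. Every Y and EY mouse lay above every N and E mouse, and Y and EY overlapped. The mean rose from 4.26 ± 0.938 TPM (SD, n = 5) in N over 5.05 ± 1.25 (n = 5) in E and 8.87 ± 1.93 (n = 3) in Y to 11.9 ± 2.48 (n = 6) in EY epithelia. The log2 fold change in EY was 1.46 (standard error 0.20, adjusted p = 1.12e-05), with 6 of 6 EY mice above every N mouse, and 1.09 after median-of-ratios scaling (adjusted p = 0.000192). The SD of Ptges within a group was smaller beside its mean than that of Ptgs2, and its smaller change had the smaller adjusted p.

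In Y epithelia Ptges was called, with a log2 fold change of 1.05 (0.55 to 1.55, adjusted p = 0.00571) and 3 of 3 Y mice above every N mouse, but close to the limits. After median-of-ratios scaling its value was 0.85 (adjusted p = 0.0194), and it was no longer called. The call was also lost without N mouse 3 (0.96, adjusted p = 0.0138), N mouse 5 (0.96, adjusted p = 0.0151), Y mouse 1 (1.05, adjusted p = 0.0201) or Y mouse 3 (0.89, adjusted p = 0.0477). In E epithelia the value was 0.23 (-0.20 to 0.67, adjusted p = 0.688). In the order N, E, Y, EY, no neighbours differed by the thresholds, with 0.82 between E and Y (adjusted p = 0.0373) and 0.41 between Y and EY (adjusted p = 0.293).

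Hpgd encodes the dehydrogenase that starts the breakdown of prostaglandin E2, and it had the highest mean TPM of the 6 genes in N and E epithelia. It was at 44.2, 67.3, 49.6, 41.8 and 41.6 TPM in the N mice, at 33.2, 24.1, 34.8, 28.1 and 15.4 in E, and at 25.7, 41.3 and 43.0 in Y mice. In EY mice it ranged from 11.7 to 35.9 TPM with a median of 17.8. Every EY and every E mouse lay below every N mouse, whereas Y mouse 3 lay inside the range of N. EY mouse 3, at 35.9 TPM, stood above the other EY mice, and without it the group was more even. The means were 48.9 ± 10.8 TPM (SD, n = 5) in N, 36.7 ± 9.55 (n = 3) in Y, 27.1 ± 7.80 (n = 5) in E and 19.9 ± 8.25 (n = 6) in EY epithelia.

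Hpgd had a log2 fold change of -1.35 between EY and N (standard error 0.25, adjusted p = 0.000325), and 6 of 6 EY mice lay below every N mouse. It was -1.73 after median-of-ratios scaling (adjusted p = 2.57e-05) and -1.54 without EY mouse 3. In E epithelia the value was -0.88 (-1.44 to -0.32), with 5 of 5 E mice below every N mouse, but its adjusted p of 0.0878 and its size both missed the thresholds. In Y epithelia it was -0.43 (-1.07 to 0.22, adjusted p = 0.396), and -0.72 after quantile normalization (-1.35 to -0.08, adjusted p = 0.136). Leaving out 1 mouse moved it to between -0.56 (Y mouse 3) and -0.19 (Y mouse 1). In the order N, Y, E, EY limma called no neighbours, with 0.45 between Y and E (adjusted p = 0.419) and -0.48 between EY and E (adjusted p = 0.165). Hpgd thus ranked E next to EY, while Ptgs2 and Ptges ranked Y next to EY.

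**Figure D2:**
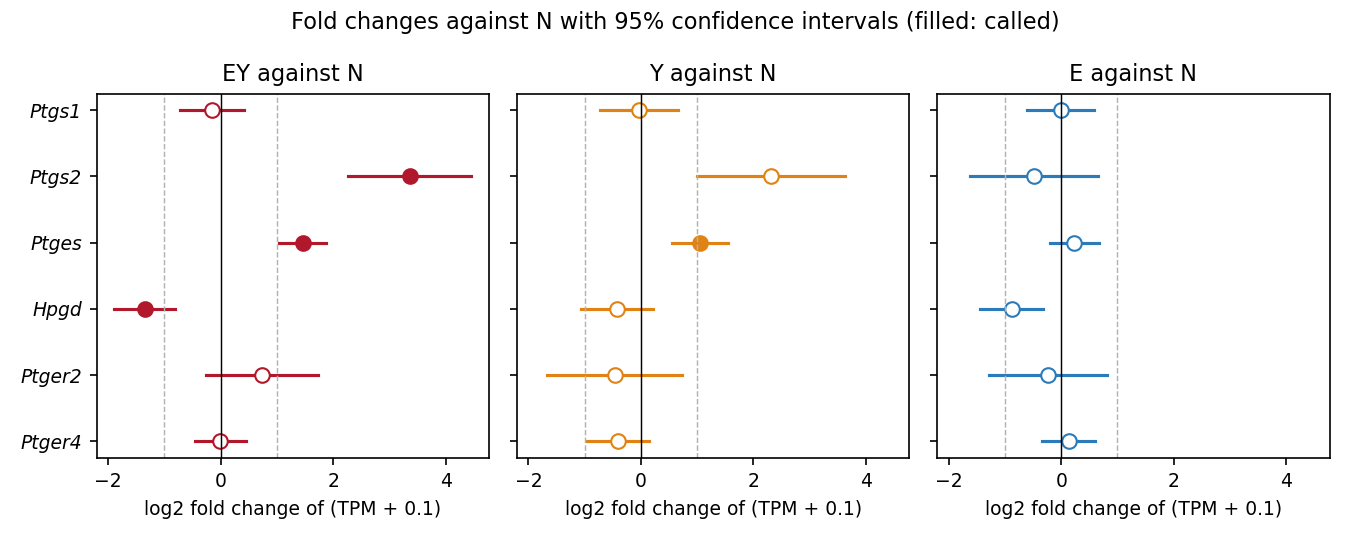
Log2 fold changes of the 6 prostaglandin genes in EY, Y and E epithelia against the same N mice, with 95% confidence intervals from limma. Filled points were called and dashed lines mark the limit on the fold change. Ptgs2, Ptges and Hpgd are filled in EY, Ptges alone in Y, and no gene in E.

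The TPM of Ptgs2 was divided by that of Hpgd in each mouse, to set a gene of synthesis beside the gene of breakdown. The ratio ran from 0.190 to 1.18 in N mice (median 0.303) and from 0.0905 to 1.48 in E mice (median 0.618). It ran from 1.29 to 6.76 in Y (median 1.48) and from 2.12 to 17.1 in EY mice (median 12.4). In TPM, Ptgs2 was below Hpgd in every N mouse but mouse 4 and in every E mouse but mouse 5, which lay inside the range of Y. In TPM it was above Hpgd in all Y and EY mice. The lowest EY value was that of EY mouse 3, which had the lowest Ptgs2 and the highest Hpgd of its group and lay inside the range of Y. The ratio was not tested, and it does not measure the amount of prostaglandin.

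**Figure D3:**
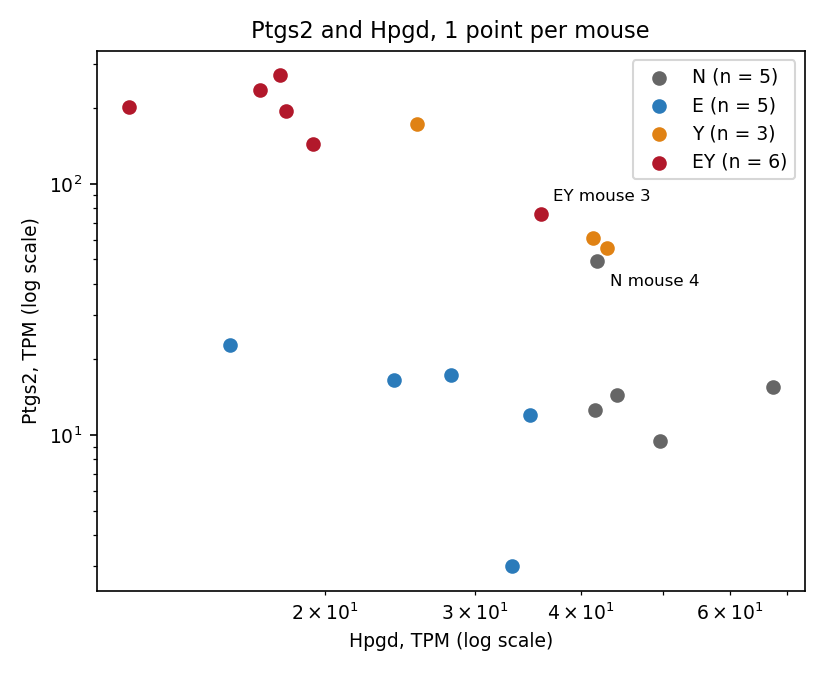
TPM of Ptgs2 against TPM of Hpgd, both on log axes, 1 point per mouse, coloured by group. EY mouse 3 lies near the Y mice at 76.0 TPM of Ptgs2 and 35.9 TPM of Hpgd, and N mouse 4 lies between the other N mice and Y. E mouse 5, at 22.9 and 15.4 TPM, has a ratio inside the range of Y.

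Ptger2 and Ptger4 encode receptors for prostaglandin E2 that raise cyclic AMP. Ptger2 was hardly detected. It was at 0 in 9 of 19 mice, and the highest counts were 11 reads in N mouse 1 (0.401 TPM) and 11 in EY mouse 3 (0.482 TPM). It reached 0.1 TPM in 6 mice, of which 4 were EY mice, and so passed the filter largely through that group. Its log2 fold change in EY of 0.74 (-0.26 to 1.74, adjusted p = 0.233) ran from 0.13 to 1.97 over the alternatives and from 0.51 to 1.16 without 1 mouse. For these reasons nothing is read from it.

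Ptger4 was low but present in every mouse, at 1.55, 1.48, 0.938, 1.28 and 1.55 TPM in N, 1.18, 1.29, 1.56, 1.62 and 1.80 in E, and 0.807, 0.829 and 1.41 in Y mice. In EY mice it ranged from 0.875 to 1.85 TPM with a median of 1.34. All groups overlapped, and the lowest values were those of Y mice 1 and 2. The log2 fold change of Ptger4 was -0.01 in EY (-0.46 to 0.44, adjusted p = 0.973), -0.41 in Y (-0.96 to 0.14) and 0.13 in E epithelia (-0.34 to 0.60). The sign in EY was not stable, as the value ran from -0.13 to 0.10 over the fits without 1 mouse. It was -0.36 after median-of-ratios scaling (-0.80 to 0.08) and -0.31 after quantile normalization.

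In EY against N, 3 of the 6 prostaglandin genes were called, namely Ptgs2, Ptges and Hpgd, beside 18.3% of all genes tested. The mice did not overlap in the same 3 genes, beside 27.4% of all genes. In Y against N, 1 of 6 was called, Ptges, beside 4.58% of all genes, and the mice did not overlap in 2, Ptgs2 and Ptges, beside 21.1%. With limma voom on the recovered reads 1 gene was also called in Y, but it was Ptgs2 (adjusted p = 0.00555) and not Ptges. By voom Ptges missed only the limit on the fold change, at 0.96 on the log2 scale (adjusted p = 0.00401). In E against N limma called 0 of 6 beside 1.20% of all genes, with 1 gene, Hpgd, at an unadjusted p below 0.05 and 0 called by voom. Hpgd was also the 1 gene in which E and N did not overlap, beside 4.57% of all genes. As the 6 genes were listed with earlier results known, these shares are a description.

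What E6-E7 added to active YAP was read from EY against Y. Here limma called 0 of 6 genes beside 2.00% of all genes, with 2 at an unadjusted p below 0.05, Hpgd and Ptger2, and 0 called by voom. Nothing is read from Ptger2 here, since it passed the filter largely through the EY mice. EY and Y overlapped in all 6 genes, while they did not in 14.5% of all genes. Hpgd differed by -0.93 (-1.55 to -0.30, adjusted p = 0.0627) and Ptges by 0.41 (-0.07 to 0.89). For Hpgd the interval lay below 0, and EY mouse 3 was the EY mouse that overlapped with Y. What active YAP added to E6-E7 was read from EY against E, where 2 of 6 were called beside 12.8% of all genes. Ptgs2 differed by 3.85 (adjusted p = 1.71e-05) and Ptges by 1.22 (adjusted p = 9.57e-05), each higher in 6 of 6 EY mice than in every E mouse. These were the 2 of 6 genes in which EY and E did not overlap, beside 24.2% of all genes. After median-of-ratios scaling Ptges differed by 0.96 and was not called there, whereas Ptgs2 was.

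Between Y and E 1 of 6 genes was called beside 2.48% of all genes. It was Ptgs2, with a difference of 2.80 (1.48 to 4.12, adjusted p = 0.0085) and 3 of 3 Y mice above every E mouse. Y and E did not overlap in 2 of 6 genes, Ptgs2 and Ptges, beside 17.6% of all genes. After median-of-ratios scaling the adjusted p of Ptgs2 was 0.0123. Ptgs2 kept the call in the fits without N mouse 3, N mouse 4, E mouse 5 or EY mouse 3. Leaving out any 1 of the other 15 mice (N mice 1, 2 and 5, E mice 1 to 4, Y mice 1 to 3, and EY mice 1, 2, 4, 5 and 6) put its adjusted p between 0.0103 and 0.0526. The interaction EY - E - Y + N asks whether both transgenes together differ from the sum of their separate effects. For it limma called 0 of 6 genes beside 0.176% of all genes, with 0 at an unadjusted p below 0.05 and 0 called by voom. It was 1.54 for Ptgs2 (-0.18 to 3.25, adjusted p = 0.422), 0.18 for Ptges (-0.47 to 0.83) and -0.05 for Hpgd (-0.89 to 0.79), so the intervals leave a wide range of values for Ptgs2.

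The other genes of the pathway were taken from lists by role, 49 genes in all, of which 44 were tested. In EY 11 of them were called, 4 higher and 7 lower, which is 25.0% of those tested beside 18.3% of all genes. After median-of-ratios scaling 11 were called, 2 higher and 9 lower, beside 15.4% of all genes. In Y 4 were called, 1 higher and 3 lower (9.09%, beside 4.58% of all genes), and 5 after scaling, and in E 0 of 44 were called by limma, with 4 at an unadjusted p below 0.05 and 0 called by voom.

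Genes that release arachidonate stand upstream of Ptgs1 and Ptgs2. Of 13 tested, 5 were called in EY and all 5 were lower, before and after scaling, and the median of the list was -0.46 beside 0.33 for all genes. Pla2g2f, a secreted phospholipase of skin, was at 46.0 ± 8.12 TPM (SD, n = 5) in N mice, lower in Y mice at 15.2 ± 4.98 (n = 3), and lowest in EY mice at 3.22 ± 1.45 (n = 6). Its log2 fold change was -3.91 in EY (adjusted p = 7.00e-09) and -1.62 in Y (adjusted p = 0.00266), and EY and Y differed by -2.29 (adjusted p = 0.000443). Pla2g4d was at 18.1 ± 1.68 TPM in N, 31.6 ± 10.2 in E and 5.79 ± 1.60 in EY mice, and its EY change was -1.67 on the log2 scale. Pla2g4f fell by 2.15, Pla2g3 by 1.81 and Plaat3 by 1.53 on the log2 scale in EY epithelia. Pla2g4a, which encodes the best known phospholipase of the pathway, was not called (0.17, adjusted p = 0.458). Pla2g12a (0.82, adjusted p = 0.0225) and Pla2g15 (0.90, adjusted p = 0.0260), named after their values were seen, were higher in EY and missed the threshold. Pla2g2e, Pla2g5 and Pla2g10 were not tested, as they missed the filter at 0.1 TPM or were not in the table.

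Other synthases act beside Ptges on the product of the cyclooxygenases. Of 7 tested, 3 were called in EY, and the median was 0.18. Akr1b3, an aldose reductase that can also make prostaglandin F2 alpha, averaged 14.8 ± 2.93 TPM (SD, n = 5) in N mice, 44.0 ± 3.06 (n = 3) in Y mice and 76.7 ± 19.1 (n = 6) in EY mice. Its log2 fold change was 2.34 in EY (adjusted p = 2.22e-08) and 1.58 in Y (adjusted p = 0.000112). Prxl2b, which encodes a prostaglandin F synthase, averaged 188 ± 41.6 TPM in N mice, 131 ± 14.3 in E mice, 73.4 ± 13.2 in Y mice and 21.4 ± 6.97 in EY mice. Its log2 fold change was -3.16 in EY (adjusted p = 3.10e-09) and -1.34 in Y (adjusted p = 0.00118), and EY and Y differed by -1.83 (adjusted p = 0.000258). Ptges3, the cytosolic counterpart of Ptges and a chaperone partner, changed by 1.22 on the log2 scale in EY (adjusted p = 3.55e-08) and 0.84 after scaling, where it was not called. Ptges2, a further synthase of prostaglandin E2, changed by 0.72 (adjusted p = 0.00214), short of the limit. Among the 3 genes for prostaglandin E2 synthases, Ptges had the largest change in EY and the lowest mean TPM in N. By recovered reads Ptges2 was the lower in N mice, with 94 to 183 reads against 207 to 397 for Ptges. Tbxas1 did not reach 0.1 TPM in 3 mice or more and was not tested, with 8 to 24 reads in N and 5 to 41 in EY mice.

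Genes of transport and further inactivation act beside Hpgd. Of 7 tested, Slco2a1 alone was called in EY, and the median was 0.19. Slco2a1, the transporter that brings prostaglandins into cells where Hpgd can act on them, averaged 0.459 ± 0.229 TPM in N mice and 1.08 ± 0.175 in EY mice (log2 fold change 1.14, adjusted p = 0.00738). It was not called after scaling (0.81), nor without any 1 of N mice 2 to 5 or EY mice 1, 3, 4 and 6 (adjusted p between 0.0125 and 0.0226). Slco2a1 and Hpgd thus moved in opposite directions in EY epithelia.

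Of 6 other prostanoid receptors tested, Ptger3 alone was called in EY, and the median was 0.51. Ptger3, a receptor for prostaglandin E2 that lowers cyclic AMP, averaged 1.73 ± 0.39 TPM in N mice, 0.600 in Y mice and 0.267 ± 0.105 in EY mice. Its log2 fold change was -2.34 in EY (adjusted p = 6.45e-07) and -1.36 in Y (adjusted p = 0.00421). Ptgfr missed the filter at 0.1 TPM and was not tested.

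Of 11 genes of the lipoxygenase and leukotriene branch, which shares arachidonate with Ptgs1 and Ptgs2, limma called Alox15 alone in EY. The median was 0.15, and voom called Alox15 and Alox5. Alox15 averaged 1.66 ± 1.02 TPM in N mice and 50.6 ± 53.9 in EY mice, a difference of 4.59 on the log2 scale (adjusted p = 0.000429), and EY mouse 4 reached 158 TPM. It averaged 21.97 ± 9.15 TPM in Y and 16.6 ± 15.6 in E mice, with log2 fold changes of 3.79 (adjusted p = 0.0219) and 2.35 (adjusted p = 0.221) that missed the threshold. After scaling Alox12 (-1.12) and Alox5 (-1.17) were called lower in EY, and Plaat3 (-1.53) in Y.

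**Figure D4:**
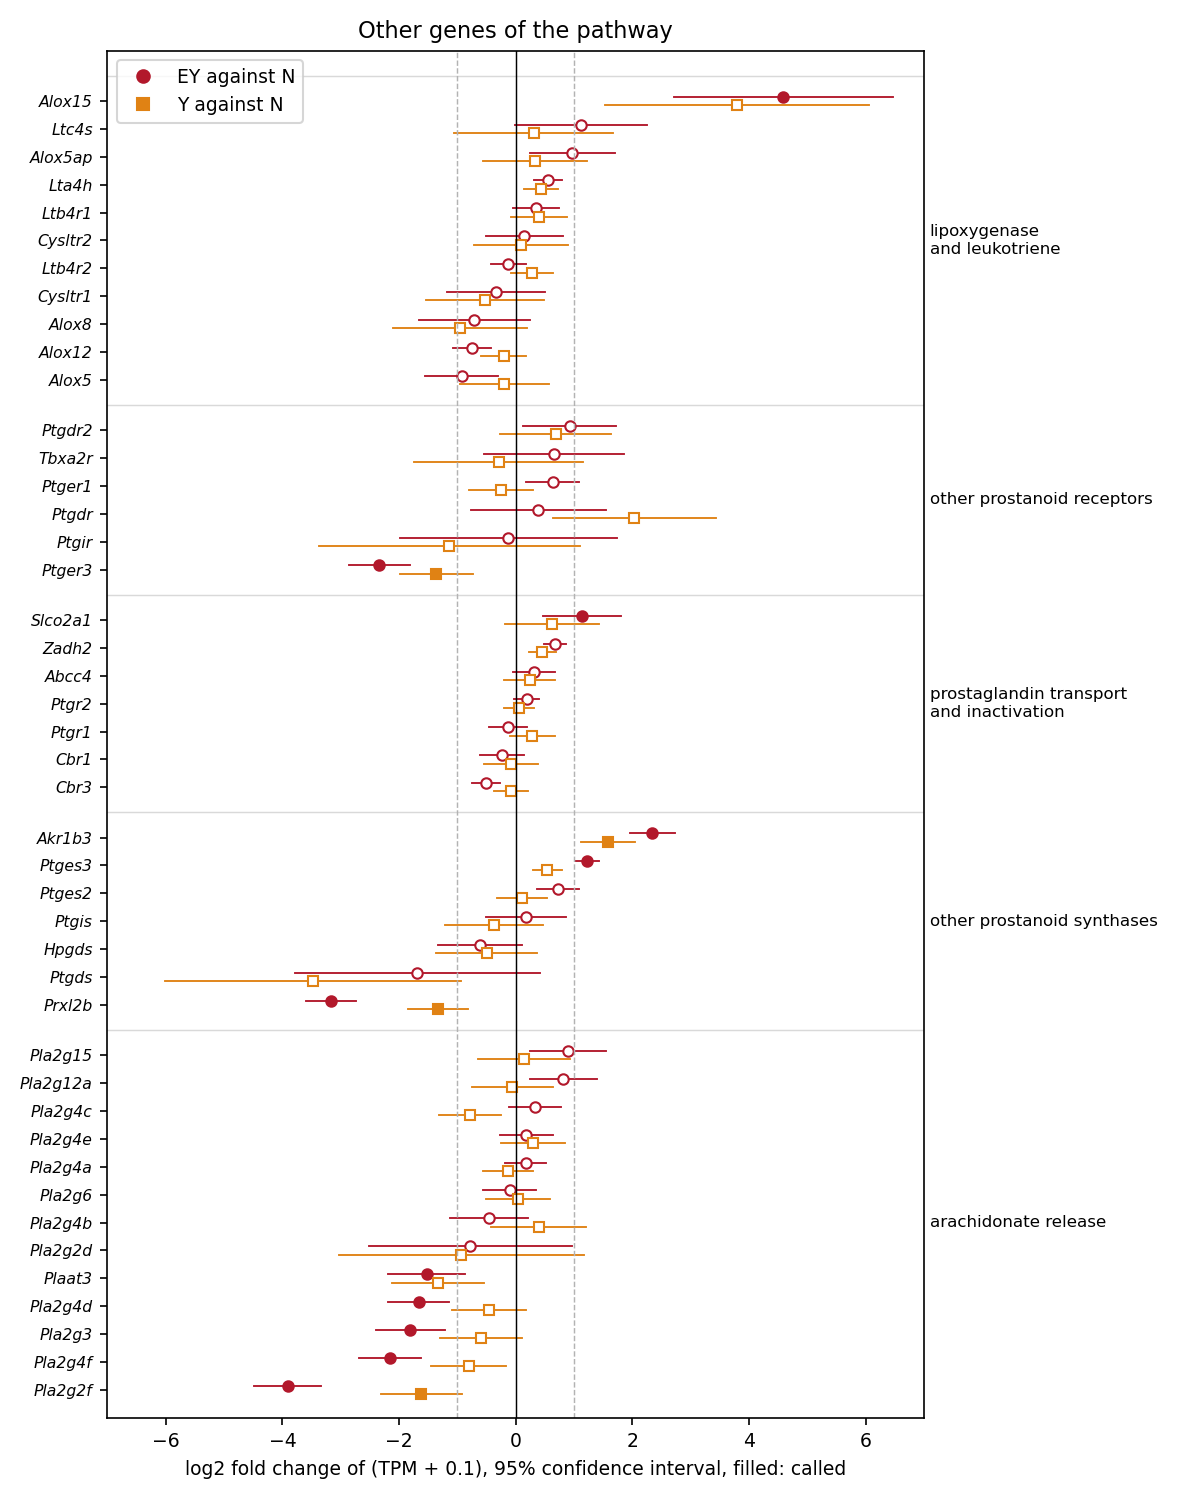
Log2 fold changes of the pathway genes tested beside Ptgs1, Ptgs2, Ptges, Hpgd, Ptger2 and Ptger4, in EY (circles) and Y epithelia (squares) against N, by list, with 95% confidence intervals. Filled points were called. In the list of arachidonate release the 5 filled points of EY lie below 0, from -3.91 for Pla2g2f to -1.53 for Plaat3.

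The labelled tissue was checked by keratinocyte markers, of which 9 of 9 were detected in every mouse. Their summed level was 73160 to 140500 TPM in N mice, 70600 to 121700 in E mice, 57770 to 106600 in Y mice and 45780 to 62630 in EY mice, and Krt13 had the highest mean in each group. In EY limma called 5 of 9, beside 18.3% of all genes tested, and voom called 4 of these, without Cdh1. Krt13 (-1.75) and Krt4 (-1.61) of the differentiating layers were lower, while Krt14 of the basal layer (1.43), Epcam and Cdh1 were higher. These levels moved with the fall of Hpgd in EY epithelia, and their part in it was not tested. In Y and E limma called 0 of 9 keratinocyte markers, with 6 and 1 at an unadjusted p below 0.05, and voom called 1 in each, Krt14 in Y and Epcam in E. By limma Hpgd was not called in E (-0.88, adjusted p = 0.0878), though all 5 E mice were below the N mice in that gene. The part of the keratinocyte markers there was not tested either.

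Neutrophils can express Ptgs2. Of 11 neutrophil markers 5 were called in EY epithelia, all higher (S100a8, S100a9, Mmp8, Ly6g and Cd177), beside 18.3% of all genes tested. The call of Ly6g is no support, since it passed the filter through the EY mice alone, and Cd177 passed it through Y and EY mice, with at most 1 read in any N or E mouse. In Y 2 of 11 were called (S100a8 and S100a9), beside 4.58% of all genes. In E limma called 0 of 11, with 0 at an unadjusted p below 0.05 and 0 called by voom. Their summed level was 11.9 to 78.7 TPM in N mice, 5.93 to 87.3 in E mice, 549 to 964 in Y mice and 84.3 to 1047 in EY mice. S100a8 had the highest mean TPM of the list in every group, and keratinocytes can express S100a8 and S100a9 too. The sum of the other 9 genes was 8.10, 17.0, 9.51, 1.66 and 3.06 TPM in N, 6.49, 2.87, 2.77, 0.434 and 8.27 in E, 17.1, 4.72 and 28.8 in Y, and 2.17 to 131 in EY mice (median 56.5). Ly6g was above 0 in 5 of 6 EY mice and in no other mouse. EY mouse 6 and Y mouse 2 had Ly6g, Retnlg, Cd177, Ngp and Camp at 0, and their Ptgs2 was at 201 and 61.0 TPM. EY mouse 6 had a sum of 2.17 TPM over the 9 genes and 84.3 TPM over all 11. The latter was above every N mouse and below E mouse 2 (87.3 TPM), whose Ptgs2 was at 16.6 TPM. Y mouse 2 had 964 TPM over all 11, the highest of the Y mice. The part of neutrophils in the level of Ptgs2 was not tested.

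**Figure D5:**
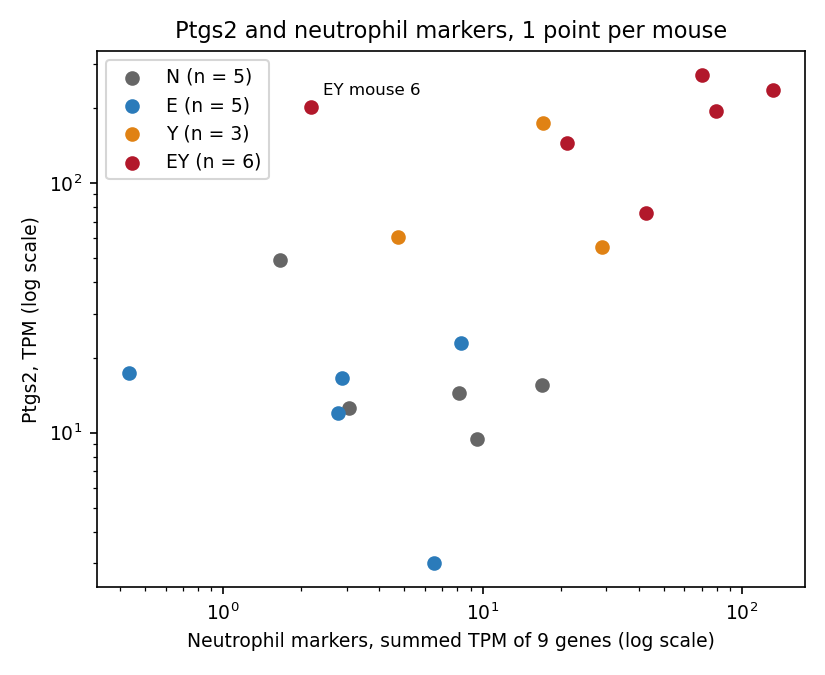
TPM of Ptgs2 against the summed TPM of 9 neutrophil markers (S100a8 and S100a9 left out), both on log axes, 1 point per mouse, coloured by group. EY mouse 6 has 201 TPM of Ptgs2 at a marker sum of 2.17 TPM, inside the range of the N and E mice.

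Other cells that can express prostaglandin genes were read from further marker lists, here and in the next paragraph. Over all genes tested, limma called 18.3% in EY, 4.58% in Y and 1.20% in E. Of 11 monocyte and macrophage markers limma called 0 in EY, Y or E, with 4, 1 and 0 at an unadjusted p below 0.05, and voom called 0. Their sum was 118 to 950.3 TPM in N mice, 49.4 to 685 in E mice, 86.3 to 162 in Y mice and 296 to 519 in EY mice, led by Lyz2 in N, E and EY and by Cd14 in Y. The median of the list in EY was 0.98 beside 0.33 for all genes, with Cd14 at 1.89 (adjusted p = 0.0229), and the part of these cells in the level of Ptgs2 was not tested. Of 3 platelet markers tested, Ppbp was called in EY. The platelet sum was 8.51 to 62.8 TPM in N mice, 7.23 to 66.3 in E mice, 44.5 to 109.8 in Y mice and 74.1 to 496 in EY mice, led by Pf4 in N and Ppbp elsewhere. The sum moved with Ptgs2 through Ppbp (6.29 in EY), while Pf4 was at -0.02 and Itga2b at -0.40 in EY, and the part of platelets in the level of Ptgs2 was not tested. Of 4 mast cell markers tested, limma and voom called 0, with 0 at an unadjusted p below 0.05, and their sum was at most 7.69 TPM in any mouse. Of 6 T cell markers Cd3d was called in EY, with 5 at an unadjusted p below 0.05 and a median of 1.69. The T cell sum in EY was 5.41 to 9.76 TPM, led by Trac, against at most 3.78 in N and 6.53 in E mice.

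Of 7 fibroblast markers, Dcn was called and was lower in EY (-2.36), while the other 6 were above 0 and the median was 0.45. In Y limma called 0 of the 7, and voom called Dcn. The sum, led by Dcn in N and Col3a1 in EY, was 61.6 to 294 TPM in N mice, 57.2 to 105 in E mice, 24.0 to 44.2 in Y mice and 24.3 to 154 in EY mice. Of 6 skeletal muscle and 3 endothelial markers tested, limma and voom called 0, with 0 at an unadjusted p below 0.05. All 6 muscle markers were above 0 in EY, with a median of 1.79, and the median of the muscle sum was 165.5 TPM in EY and 48.9 in N mice. EY mouse 3 had a muscle sum of 1264 TPM, led by Acta1, against at most 233 in the other mice. Endothelial markers summed to at most 3.39 TPM. Of 4 Langerhans cell markers Cd207 was called and was lower in EY (-1.86), while the other 3 were above 0 and the median was 0.45, with sums, led by H2-Aa, of 95.7 to 372 TPM in N and 139 to 445 in EY mice. Of 5 taste and tuft cell markers tested, limma called Avil and Pou2f3 lower in EY, and Avil in Y, where voom called both. The sums of the list, led by Tas1r3, were 9.87 to 20.1 TPM in N and 4.61 to 7.86 in EY mice. N mouse 1, with the highest fibroblast sum, and EY mouse 3 were left out together in a fit chosen after seeing the data. The log2 fold changes in EY were then 3.55 for Ptgs2, 1.46 for Ptges and -1.57 for Hpgd, and all 3 genes were called. The part of the other lists in the levels of the prostaglandin genes was not tested.

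The genes most like Ptgs2, Ptges and Hpgd across the 19 mice were found by the root mean square difference of log2(TPM + 0.1) after each gene was centred on its own mean. For Ptgs2 they were Thbs1 (0.763), Myadm (0.775) and Plk2 (0.779), against an SD of 1.91 of Ptgs2 itself. Thbs1 averaged 2.66 TPM in N mice, 1.83 in E mice, 10.5 in Y mice and 19.9 in EY mice. In Myadm and Plk2 the mean of N was below that of E, unlike in Ptgs2. For Ptges they were Fkbp1a (0.214), Cnn2 (0.227) and Kansl2 (0.231), against an SD of 0.706. Fkbp1a had means of 9.35, 10.8, 19.1 and 26.7 TPM in N, E, Y and EY. For Hpgd they were Gm14325 (0.369), Svopl (0.375) and Zfp60 (0.398), against an SD of 0.679. Svopl averaged at most 0.139 TPM in any group, close to the pseudocount, so its likeness is not read further.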

How the data were processed

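The authors aligned reads to GRCm39 with STAR 2.7.9, sorted them with SAMtools 1.7, counted them per gene with HTSeq 0.13.5 and used DESeq2 1.34.0 for their own tests. The authors deposited the values as TPM, 1 column per mouse, and each mouse sums to 1000000 over 24689 gene symbols. How counts became TPM, and which gene lengths were used, is not given in the sources used here. A TPM stood for different numbers of reads in different genes. In N mouse 1, 340 reads of Ptges gave 4.80 TPM and 208 reads of Ptgs2 gave 14.5 TPM. The filter and the pseudocount of 0.1 TPM thus stand for different numbers of reads. Reads were recovered as whole multiples of a step per gene, within 0.001, for 24680 of 24680 genes above 0. They gave the depth of 8269674 to 11007304 reads per mouse, and intervals cover the spread between mice and not counting error alone.

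The titles and genotypes of the mice gave the groups. The 22745 genes that reached 0.1 TPM in 3 mice or more were compared on log2(TPM + 0.1) by limma 3.58.1 under R 4.3.3, with lmFit, contrasts.fit and trended eBayes in 1 model of 4 group means. A call needed an adjusted p (Benjamini-Hochberg) below 0.01 with a log2 fold change above 1 in size. The model was tested on simulated data. The software was Python 3.11.15 with numpy 2.4.6 and pandas 2.3.3, and matplotlib 3.10.9 for figures.

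The members and lists were chosen with earlier results of these data known. Genes were named by a rule: the 6 prostaglandin genes, every pathway gene called in EY against N, for each of the 6 called against N the 3 genes nearest in pattern, and marker genes where their list is given. Pla2g4a, Ptges2, Alox5, Alox12, Pla2g12a and Pla2g15 are named from the pathway lists, the last 4 after their values were seen. Pla2g2e, Pla2g5, Pla2g10, Tbxas1 and Ptgfr are named from these lists as not tested. The marker lists were keratinocyte, neutrophil, monocyte and macrophage, mast cell, fibroblast, endothelium, skeletal muscle, T cell, Langerhans cell, taste and tuft cell, and platelet. Ms4a2, Fcer1a, Gp9 and Pla2g10 are not in the table.

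The alternatives were pseudocounts of 1 and 0.01 TPM, a filter at 1 TPM, every gene above 0, quantile normalization, median-of-ratios scaling, the 3 N mice of the regulatory genotype alone, fits of only the groups compared, a replicate block by mouse number, robust eBayes, limma voom on the recovered reads, a threshold of 0.05 on the adjusted p, fold changes without a limit, and leaving out each mouse in turn. A fit without N mouse 1 and EY mouse 3 was chosen after seeing the data. The transgenes are not listed in the table and were not analysed, and neither the labels nor the methods give a sequencing batch.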

Additional observations from a re-analysis of the deposited data

Results flagged for a closer look

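In groups of 5 or 6 mice, the gap between the highest or lowest mouse and its neighbour was divided by the range of the group, for the 6 prostaglandin genes and the 11 pathway genes called in EY. The gap was larger than the 95% limit of Dixon in 5 of 51 groups. For normal values chance alone gives about 1 in 20. The rule was applied to TPM and not to the log2 values of the model, so that rate need not hold here. In all 5 the mouse apart was the highest of its group. Ptgs2 in N had a gap of 0.846 of the range, from N mouse 4 at 49.2 TPM. Hpgd in EY had a gap of 0.684, from EY mouse 3 at 35.9 TPM. Ptger2 in N had a gap of 0.796, from N mouse 1 at 0.401 TPM, which is 11 reads. Alox15 in EY had a gap of 0.781, from EY mouse 4 at 158 TPM. Slco2a1 in N had a gap of 0.787, from N mouse 1 at 0.860 TPM. Groups of 3 Y mice were too small for this rule.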

How the results depend on the processing

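In EY against N, Ptgs2 (2.99 to 3.74 over the alternatives), Ptges (1.09 to 1.49) and Hpgd (-1.77 to -1.22) kept their direction and their call under all 13 alternatives, the added fit without N mouse 1 and EY mouse 3, and the 19 fits without 1 mouse. Over the fits without 1 mouse Ptgs2 ran from 3.16 to 3.75, Ptges from 1.36 to 1.53 and Hpgd from -1.54 to -1.22.

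In Y against N 0 of the 6 genes were called with a pseudocount of 1 TPM, quantile normalization or median-of-ratios scaling. The same held for the 3 N mice of the regulatory genotype alone and for only the groups compared. Of all genes, 2.9% to 4.03% were called in these settings. At an adjusted p below 0.05, 2 of the 6 were called, beside 7.03% of all genes. The main fit called 4.58% of all genes. Ptges missed the limits with a pseudocount of 1 TPM (0.91), median-of-ratios scaling (0.85), quantile normalization (0.86), the 3 N mice (0.99), only the groups compared (1.05) and voom (0.96). Ptgs2 passed with voom (2.19) and at an adjusted p below 0.05 (2.31). Ptger4 in EY reversed to 0.0355 with the 3 N mice and to 0.15 in the added fit, and Ptger2 in E to 0.19 in the added fit. Over the alternatives and the added fit Ptger4 in EY ran from -0.36 to 0.15, Ptgs1 in EY from -0.56 to -0.05 and Hpgd in Y from -0.72 to -0.42, with the values farthest below 0 after the scalings. In EY against E 1 gene was called with quantile normalization and with median-of-ratios scaling, beside 11.4% and 11.3% of all genes. In Y against E 0 were called after both scalings, with only the groups compared and with the replicate block, beside 1.08% to 2.38% of all genes. The cause of these changes was not tested.

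With the mouse number as a replicate block, Ptgs2 differed between Y and E by 3.12 (adjusted p = 0.0101, in a range of 0.00233 to 0.0493). Mice of the same number had a median correlation of 0.012 over 24 pairs after group means were removed, against -0.008 over 109 other pairs, so the numbers are no pairing.

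Over the fits without 1 mouse, the number of genes called ran from 0 to 2 in Y against N and from 0 to 1 in Y against E, and was 3 in EY against N, 2 in EY against E and 0 in E against N, EY against Y and the interaction. Ptger4 in EY ran from -0.13 to 0.10, Ptgs1 in EY from -0.32 to -0.02, Hpgd in Y from -0.56 to -0.19, Ptger2 in EY from 0.51 to 1.16, Ptgs1 in Y from -0.42 to 0.23, Ptgs2 in Y from 1.79 to 2.6998, Ptges in Y from 0.89 to 1.20, Ptgs1 in E from -0.17 to 0.10, Ptgs2 in E from -0.72 to 0.0008 and Ptger2 in E from -0.42 to 0.19. Among the pathway genes, Ptges3 (0.84 after both scalings) and Slco2a1 (0.52 to 1.36, not called in 5 alternatives) lost their call in EY.

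The interaction gave no value with only the groups compared, and Ptger2 gave none with the filter at 1 TPM and, in Y and E, with only the groups compared. Y epithelia had 3 mice, which limits what could be called there. Ptger2, with 0 to 11 reads, was beyond the depth of these libraries. RNA levels do not give the amount of enzyme, prostaglandin or receptor, and whole epithelia mix cell types. N mice 4 and 5 differ in genotype from the others. The labels give neither cell numbers nor batches for these mice.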
